A study of Oryza sativa with 21 samples.

Results

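The data described here are 6 lists of m5C peaks from rice seedlings, 3 from the DRW1 overexpression line OE1 and 3 from its wild type, the cultivar ZH11. They were chosen by label, as the immunoprecipitated libraries of seedlings harvested 3 weeks after germination, and they are 6 of the 21 samples of the series. The lists hold 497111 peaks in all, of which OE1 lists 1, 2 and 3 hold 90132, 91560 and 94379, and ZH11 lists 1, 2 and 3 hold 73753, 67984 and 79303. Plants of both genotypes grew in a chamber, and both carry the ZH11 background. OE1 is 1 line. The sources used here give neither its promoter, nor the number of plants per library, nor the level of DRW1 in these seedlings, and peak lists hold no expression values that could check the overexpression. Whether libraries of a genotype come from separate plants is unlabelled, and the p-values below speak of the spread between lists, which may be technical. The other samples are the seedling input libraries and RNA-seq of grains, which were not analysed here.

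The mark m5C is a cytosine with a methyl group on its ring, written into RNA by methyltransferases such as those of the NSUN family and TRDMT1. In plants it is known from transfer and ribosomal RNA and from messenger RNA, where it has been tied to RNA movement, stability and translation. In the m5C IP-seq used here, fragmented RNA is pulled down with an antibody against the mark and sequenced beside an input sample, and a peak is a stretch of the genome where the pulled-down fragments pile up above the background. The question that the design poses is whether overexpression of DRW1 goes with a different set of m5C peaks. Each peak has a position, a summit, an enrichment (pulled-down coverage plus 1 over background plus 1 at the summit, as the values show) and a −log10 p and −log10 q, which are the authors' own values.

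OE1 lists held more peaks than ZH11 lists and covered more of the genome. They averaged 92024 ± 2161 peaks in OE1 and 73680 ± 5660 in ZH11 (SD, n = 3 lists each), a ratio of 1.25. The smallest OE1 list was longer than the largest ZH11 list. The peaks covered 39.6, 35.5 and 41.6 Mb in the OE1 lists, against 29.5, 18.4 and 24.4 Mb in the ZH11 lists, a ratio of means of 1.61 with no overlap between the genotypes. With 3 lists against 3 an exact two-sided permutation test cannot go below p = 0.1, and both measures reached that value (Benjamini-Hochberg adjusted p = 0.15 over 6 measures, exact permutation test). No measure of whole lists could therefore pass a threshold of 0.05 in this test. Among peaks with −log10 q of 5 or more, the ratio was 3.73 for number and 4.68 for covered length (exact permutation p = 0.1 each). Both p and q rest on each list's background, which differed between the genotypes as given below. A cut on q is therefore not a common floor on coverage, and peak numbers at such floors are given below.

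**Figure D1:**
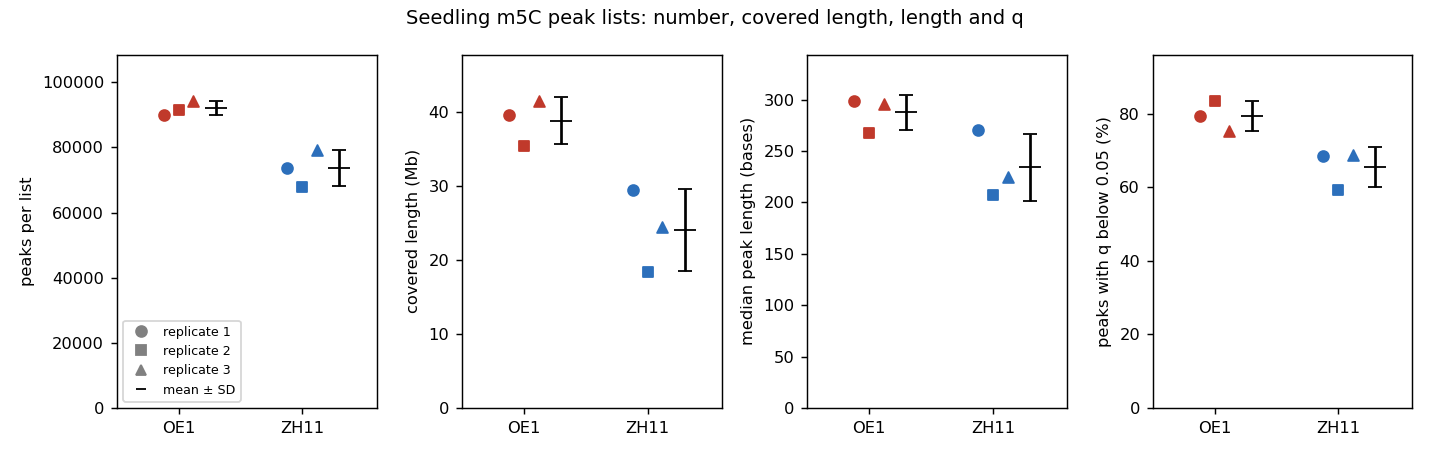
Number of peaks, covered length (Mb), median peak length (bases) and share of peaks with q below 0.05 (%) in each list, OE1 left of ZH11, with 1 marker shape per replicate and bars for the mean ± SD. The OE1 lists lie above all ZH11 lists in number (90132 or more, against 79303 or fewer), covered length and share with q below 0.05, and overlap them in median length.

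OE1 peaks lay closer together and more of them reached a low q. The median gap between neighbouring peaks was 1049, 985 and 1006 bases in OE1 lists, against 1206, 1380 and 1106 bases in ZH11 lists (ratio of means 0.823, exact permutation p = 0.1, adjusted p = 0.15). This order turns with the number of peaks taken: with every list cut to its 67984 peaks of lowest p, the number in the shortest list, the ratio was 1.08. Among peaks with −log10 q of 5 or more, a cut that moves with each list's background, it was 0.233. The share of peaks with q below 0.05 was 79.4%, 83.6% and 75.3% in OE1 lists and 68.4%, 59.2% and 68.9% in ZH11 lists (exact permutation p = 0.1, adjusted p = 0.15). The lists also hold peaks that miss that q, since the lowest −log10 p in each was between 1.302 and 1.308.

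The peak values carry the depth behind each list. In every list, −log10 p and enrichment together fitted a Poisson model of whole pulled-down fragments over a background, and all peaks could be solved for both. Values per kb take the shortest peak of each list as the length of 1 fragment, which the sources used here do not give. The pulled-down libraries came to 24.3, 20.7 and 16.8 fragments per kb of genome in OE1 lists and 29.9, 13.9 and 16.99 in ZH11 lists. Their means, 20.6 ± 3.75 in OE1 and 20.3 ± 8.48 in ZH11 (SD, n = 3 each), did not separate (exact permutation p = 1). ZH11 list 1 was the deepest and ZH11 list 2 the shallowest of the 6.

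The background differed between the genotypes, and lists of 1 genotype shared it. It was 8.85 fragments per kb in all 3 OE1 lists and 7.87 in all 3 ZH11 lists, with a spread of at most 0.000183% within a genotype, although the labels list 3 input libraries for each. The background of a peak is not taken below the genome-wide value. Before conversion to kb, that value was 1.18, 1.13 and 1.16 fragments in OE1 lists and 0.921, 0.827 and 0.913 in ZH11 lists. A local background of 1 could therefore appear in ZH11 lists alone. It was found at 28.2%, 29.2% and 27.8% of ZH11 peaks and at 0% of OE1 peaks. Peaks on the genome-wide background were 74.7%, 74.7% and 76.1% of OE1 lists, against 48.0%, 47.9% and 48.0% of ZH11 lists. Any other local background above the genome-wide one was found at 25.4%, 25.3% and 23.9% of OE1 peaks. In ZH11 lists it was found at 23.8%, 22.8% and 24.2%, so only these remaining shares overlap. A peak on the genome-wide background entered the list at p below 0.05 once its coverage reached 2.78, 3.02 and 2.72 times the list's mean in the OE1 lists, against 3.43, 4.11 and 3.55 times in the ZH11 lists. Peaks could thus be weaker in OE1 lists than in ZH11 lists and still be listed. Genotype and these background differences cannot be told apart in this design. Lists of 1 genotype are not independent in their background, nor in the enrichment, p and q that rest on it.

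With a floor on summit coverage, the ratio of peak numbers depended on the floor. Summit coverage is used here for the pulled-down coverage at a peak's summit over the list's own mean, with no correction for local input. OE1 lists held 44987, 36148 and 48856 peaks under 6 times the mean, against 26966, 14779 and 26193 in ZH11 lists. At floors of 4, 6, 8, 10, 12, 15 and 20 times the mean, chosen after the data were seen, the ratio of peak numbers was 1.16, 0.954, 1.05, 1.18, 1.39, 1.32 and 1.27. The genotypes did not overlap at floors of 4 and 12 and overlapped at the other 5. The floor of 4 is not the same in every list, since ZH11 list 2 holds no peak under 4.11 and keeps all of its peaks. At a floor of 8, OE1 lists kept 25467 ± 1589 peaks and ZH11 lists 24166 ± 982 (SD, n = 3 each, exact permutation p = 0.3). The ratio of covered length ran from 1.43 to 1.92 over the 7 floors, and at none did the genotypes overlap. The floor chooses peaks by their summit and leaves their borders as listed, so covered length was not put on a common floor.

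**Figure D2:**
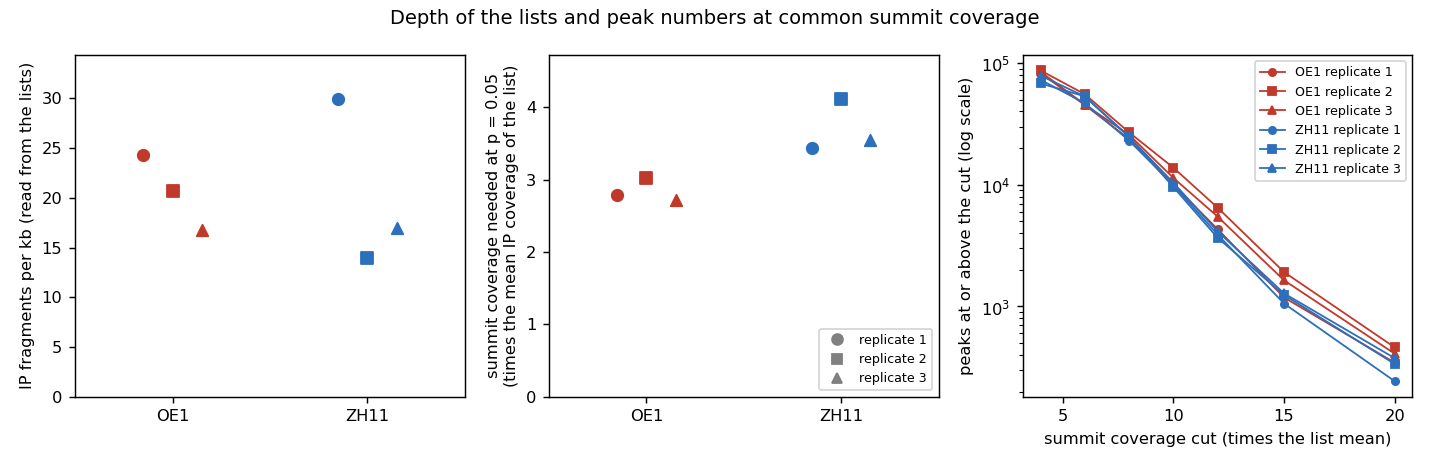
Pulled-down fragments per kb of genome by list (left) and the summit coverage needed to enter a list at p below 0.05 (middle, times the list mean). The number of peaks at or above each summit coverage floor is on the right (times the list mean, number on a log scale). OE1 is in red and ZH11 in blue. Pulled-down depth overlaps, and the coverage needed is 3.02 or less in OE1 lists and 3.43 or more in ZH11 lists. The curves of the genotypes run close together at floors of 6 and 8.

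OE1 peaks were longer at the middle of the length range, though ZH11 list 1 lay among the OE1 lists. The median length was 299, 268 and 296 bases in OE1 lists, against 270, 207 and 225 bases in ZH11 lists, a ratio of means of 1.23 (exact permutation p = 0.2, adjusted p = 0.2). Only ZH11 list 1 reached into the OE1 range. Peaks of 1000 bases or more made up 8.09%, 5.75% and 8.34% of OE1 lists, against 6.38%, 1.12% and 2.25% of ZH11 lists (exact permutation p = 0.2, adjusted p = 0.2). They numbered 7292, 5263 and 7867 in OE1 lists and 4702, 760 and 1788 in ZH11 lists, and held 26.6%, 20.4% and 27.8% of the covered bases in OE1 against 22.6%, 5.26% and 9.39% in ZH11. The genotypes overlap in each of these shares through ZH11 list 1, the deepest library. Pulled-down depth, background and the coverage needed to enter a list all vary beside these lengths, and their part was not tested. With 67984 peaks in each list, the share of 1000 bases or more was 10.5%, 7.66% and 11.4% in OE1 lists and 6.86%, 1.12% and 2.57% in ZH11 lists, with no overlap (exact permutation p = 0.1).

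Short peaks made the other end of the range. Peaks under 200 bases were 27.6%, 32.5% and 28.7% of OE1 lists, against 33.9%, 47.6% and 42.7% of ZH11 lists, so the lists did not overlap. The shortest peak was 133, 128 and 131 bases long in OE1 lists and 117, 105 and 116 bases in ZH11 lists. The shortest length a list allows was therefore itself greater in OE1. The longest peak was 11877, 9295 and 7202 bases in OE1 lists and 5791, 4138 and 3154 bases in ZH11 lists.

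**Figure D3:**
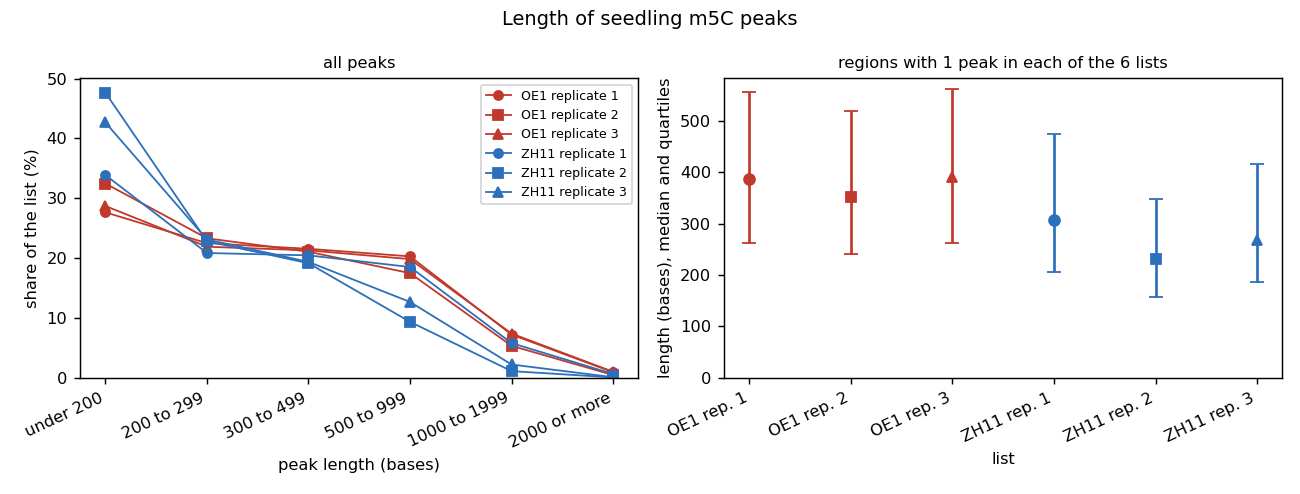
Share of each list by peak length class (left, %) and the median length with quartiles of the regions with exactly 1 peak in each of the 6 lists (right, bases), OE1 in red and ZH11 in blue. ZH11 lists 2 and 3 hold 47.6% and 42.7% of peaks under 200 bases, ZH11 list 1 lies near the OE1 lists, and the medians on the right are 352 or more in OE1 and 308 or fewer in ZH11.

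The longest regions were covered more fully in OE1 lists. Peaks of the 6 lists that overlap were merged into 111885 regions. At the start of chromosome 1, chr1:439-12359 (1-based, in the coordinates of the deposited lists, whose build the sources used here do not give) was covered over 11877, 11737 and 11069 bases in OE1 lists by 1, 2 and 6 peaks. The same region was covered over 5262, 4286 and 6749 bases in ZH11 lists by 11, 9 and 14 peaks. Fewer peaks thus spanned more bases in OE1 there, and the genotypes do not overlap in either measure. At chr3:8658894-8671154 the covered length was 11136, 11561 and 11265 bases in OE1 lists and 10965, 5985 and 7913 bases in ZH11 lists. At chr2:23038040-23051101 it was 11218, 10164 and 11902 bases in OE1 and 9459, 6712 and 7329 bases in ZH11. Among the regions longest in ZH11, chr8:27361491-27373990 did not separate the genotypes, with 10706, 10594 and 11804 bases in OE1 lists and 10980, 6184 and 8287 bases in ZH11 lists. Contig00091:8497-18844 had 10285, 9374 and 9998 bases in OE1 and 9944, 8392 and 8626 bases in ZH11, and its lists overlap too. The regions were chosen for their length, so these values describe them and no test was run. The deposited lists name no genes, and none was assigned to a region.

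The median enrichment of whole lists overlapped between the genotypes, while at the same places it was higher in OE1. Over all peaks it was 3.47, 3.67 and 3.39 in OE1 lists and 3.40, 3.34 and 3.43 in ZH11 lists, and ZH11 list 1 and list 3 lie above OE1 list 3. It is a value per list that shifts with how many weak peaks a list holds, so no test was run. In regions with exactly 1 peak in each list, the medians were 4.14, 4.28 and 4.12 in OE1 lists and 3.67, 3.65 and 3.67 in ZH11 lists, with no overlap. With 67984 peaks in each list they were 3.805, 4.08 and 3.88 in OE1 and 3.41, 3.34 and 3.58 in ZH11, again with no overlap. Because 1 is added above and below, the same ratio of coverage to background gives a higher enrichment on the larger OE1 background, and this part of the difference was not separated out. Peaks with an enrichment of 4 or more numbered 28985, 35443 and 31906 in OE1 lists, against 21144, 17401 and 21993 in ZH11 lists. They were 32.2%, 38.7% and 33.8% of the OE1 lists and 28.7%, 25.6% and 27.7% of the ZH11 lists. The highest enrichment was 15.8, 18.3 and 19.1 in OE1 lists and 13.8, 15.4 and 15.3 in ZH11 lists. Longer peaks had higher enrichment in every list: peaks under 200 bases had medians of 2.97, 3.08 and 2.90 in OE1 and 3.00, 3.34 and 3.19 in ZH11, while peaks of 1000 to 1999 bases had 5.14, 5.66 and 5.34 in OE1 and 4.75, 4.58 and 5.05 in ZH11. In that longer class all OE1 lists lay above all ZH11 lists, and among peaks under 200 bases ZH11 list 1 lay among the OE1 lists.

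Regions with exactly 1 peak in each list allow the same place to be compared, and in most of them the OE1 peak was the longer. There were 17546 such regions, 15.7% of the merged regions. Their median length was 387, 352 and 390.5 bases in OE1 lists, against 308, 232 and 269 bases in ZH11 lists. The length was greater in OE1 in 88.3% of them, with a median difference of 0.41 on the log2 scale. No single region was called by limma at an adjusted p of 0.05, longer (0%) or shorter (0%), although 3173 had an unadjusted p under 0.05, of which 3100 were longer in OE1 and 73 shorter. All OE1 lists were longer than all ZH11 lists in 5236 regions (29.8%) and all were shorter in 177 (1.01%). Centring each list on its own median log2 length removes such a shift by construction and left a median difference of -0.075. Without ZH11 list 1, 31 regions were called longer, and without ZH11 list 2 the median difference was 0.27.

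The 3 regions of smallest unadjusted p among the longer ones were chosen on their lengths, and their genotypes did not overlap. The peak at chr7:20115909-20116992 was 802, 962 and 1084 bases long in OE1 lists and 210, 186 and 170 bases in ZH11 lists, and that at chr9:7179501-7180042 was 480, 450 and 472 bases in OE1 and 119, 115 and 141 bases in ZH11. At chr11:11381961-11382699 it was 563, 701 and 473 bases in OE1 and 117, 145 and 116 bases in ZH11. The difference was 2.33 ± 0.213, 1.91 ± 0.193 and 2.19 ± 0.232 on the log2 scale (SE), each with a limma adjusted p of 0.0658. The strongest in the other direction was chr11:4999265-4999839, with 158, 138 and 132 bases in OE1 lists and 411, 494 and 562 bases in ZH11 lists, a log2 difference of −1.77 ± 0.213 (SE) and the same adjusted p. Next were chr7:15984994-15985512, with 177, 164 and 214 bases in OE1 and 519, 462 and 354 in ZH11 (limma adjusted p = 0.115), and chr10:10658968-10659389, with 133, 179 and 182 bases in OE1 and 329, 325 and 314 in ZH11 (limma adjusted p = 0.135). None passed the threshold.

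Enrichment separated the genotypes in more of the shared regions than summit coverage did. All OE1 lists were above all ZH11 lists in enrichment in 3920 regions (22.3%) and below in 841 (4.79%). In summit coverage the counts were 1396 (7.96%) and 746 (4.25%), so the surplus towards OE1 was smaller. Of the 3920 regions, 1048 (26.7%) also had higher summit coverage in all OE1 lists. Enrichment carries the background that lists of a genotype shared, so its order in a region does not rest on independent values per list.

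In the regions of highest enrichment, coverage and background could differ separately. Among those highest in OE1, chr7:16820045-16821090 had an enrichment of 15.8, 18.3 and 18.3 in OE1 lists and 10.4, 3.29 and 11.1 in ZH11 lists, with summit coverage of 28.5, 33.6 and 33.1 in OE1 and 27.4, 8.21 and 29.4 in ZH11. ZH11 list 2 was low in both measures and the other ZH11 lists in enrichment by a smaller margin. The region chr6:19266474-19266916 had an enrichment of 13.8, 15.9 and 16.6 in OE1 and 5.85, 5.98 and 6.39 in ZH11, with local background at 1.18, 1.13 and 1.16 fragments in OE1 and 3, 1.16 and 3 in ZH11. Its summit coverage, 24.7, 29.1 and 29.97 in OE1 and 24.3, 14.4 and 26.9 in ZH11, overlapped. At chr4:35068805-35069630 the enrichment was 13.6, 15.7 and 19.1 in OE1 lists and 13.8 and 14.3 in ZH11 lists 1 and 3, while ZH11 list 2 held no peak.

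Among those highest in ZH11, the region chr10:5232703-5233245 had an enrichment of 2.49, 3.29 and 3.20 in OE1 lists and 10.1, 14.5 and 11.5 in ZH11 lists. Its summit coverage overlapped, at 28.8, 34.0 and 35.0 in OE1 and 31.7, 40.4 and 36.5 in ZH11, and its local background was 13, 11 and 12 fragments in OE1 against 2, 1.36 and 2 in ZH11. The genotypes separated there in background and enrichment and not in pulled-down coverage. Because lists of a genotype shared their background density, separation in background or enrichment does not rest on independent values per list. At Contig00094:61923-62673 the enrichment was 4.20, 3.75 and 3.42 in OE1 and 12.3, 15.4 and 14.6 in ZH11, with a local background of 6, 6 and 7 fragments in OE1 against 0.921, 0.827 and 0.913 in ZH11. Summit coverage there was 24.1, 22.3 and 22.7 in OE1 and 24.6, 32.9 and 29.4 in ZH11, with no overlap. At chr7:12079721-12080630 both genotypes had high enrichment, 13.2, 13.9 and 15.6 in OE1 and 11.7, 12.4 and 15.3 in ZH11.

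Most peaks of each genotype overlapped one of the other by at least 1 base. A ZH11 peak overlapped a peak of an OE1 list in 87.8% of cases on average (84.2% to 90.5% over 9 pairs of lists), and an OE1 peak overlapped one of a ZH11 list in 63.6% (54.3% to 71.98%). Within a genotype, the share was 82.5% between OE1 lists and 72.8% between ZH11 lists. When the overlap had to cover 50% of both peaks, the shares were 49.8% of ZH11 peaks in OE1 lists, 40.1% of OE1 peaks in ZH11 lists, 61.7% within OE1 and 43.3% within ZH11. These shares depend on list length, and the differences between them were not tested. Cut to 67984 peaks each, the shares were 77.5% for ZH11 peaks in OE1 lists and 69.1% for OE1 peaks in ZH11 lists. In the 17546 regions with exactly 1 peak in each list, summits lay a median of 33 to 51 bases apart between genotypes. The medians were 33 to 36 bases within OE1 and 37 to 52 within ZH11.

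Of the merged regions, 35082 (31.4%) had a peak in all 6 lists. Every OE1 list and none of ZH11 had a peak in 3817 regions (3.41%), and every ZH11 list and none of OE1 had one in 216 (0.193%). Leaving out 1 list, so that fewer lists must hold or lack the peak, gave 5686 to 7127 and 354 to 625. With lists of 67984 peaks the counts were 1419 for OE1 and 769 for ZH11. With summit coverage of 8 or more they were 428 for OE1 and 166 for ZH11.

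The spread of peaks over the chromosomes was nearly the same. No chromosome's share differed by more than 0.346 percentage points between the genotypes. The share on chromosome 11 was 7.48%, 7.31% and 7.51% in OE1 lists and 7.24%, 7.02% and 7.005% in ZH11 lists. The shares on chromosomes 6 and 12 were also higher in all OE1 lists, averaging 7.38% and 7.76% in OE1 and 7.18% and 7.58% in ZH11. Chromosome 1 averaged 10.5% in OE1 and 10.7% in ZH11, chromosome 3 averaged 8.48% and 8.58%, and chromosome 5 averaged 8.79% and 9.05%, each lower in all OE1 lists. Unplaced contigs held 2.37%, 2.32% and 2.43% of OE1 lists and 2.71%, 2.68% and 2.67% of ZH11 lists. Of the 13 classes, 7 did not overlap between the genotypes, 3 higher and 4 lower in OE1, with a smallest adjusted p of 0.186 (exact permutation test, Benjamini-Hochberg over 13). Chromosomes 2, 4, 7, 8, 9 and 10 overlapped, with mean shares of 8.18%, 9.95%, 7.85%, 7.90%, 6.39% and 6.99% in OE1 and 8.16%, 10.01%, 7.72%, 7.91%, 6.34% and 6.98% in ZH11. With summit coverage of 8 or more, 3 classes did not overlap.

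The mean peak number was higher in OE1 on every chromosome. The ratio of peak numbers ran from 1.21 on chromosome 5 to 1.31 on chromosome 11, and was 1.10 over the contigs. The density was 210.5 to 273.5 peaks per Mb over the chromosomes in OE1 and 168.1 to 222.6 in ZH11, lowest on chromosome 2 in both and highest on chromosome 10 in OE1 and on chromosome 5 in ZH11. The contigs with most peaks, Contig00033, Contig00036 and Contig00054, averaged 112, 110 and 85.7 peaks in OE1 lists and 93.7, 80.3 and 73 in ZH11 lists.

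**Figure D4:**
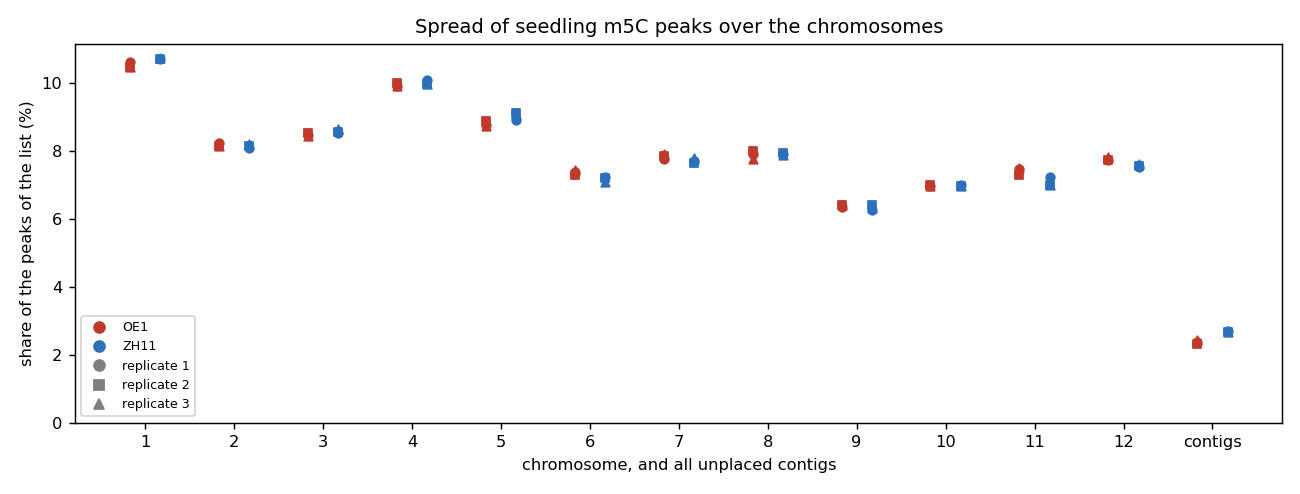
Share of each list's peaks on the 12 chromosomes and on all unplaced contigs (%), OE1 in red left of ZH11 in blue, with 1 marker shape per replicate. The points of the genotypes lie within 0.346 percentage points of each other on average in every class, and chromosome 11 and the contigs separate them most.

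Along the chromosomes, OE1 peaks lay slightly farther from the ends. The distance from the nearer end of a chromosome to its midpoint was split into 3 equal zones, a split made after the data were seen. The outer zone held 26.7 ± 0.108% of OE1 peaks and 27.6 ± 0.267% of ZH11 peaks, and the inner zone held 39.0 ± 0.239% in OE1 and 38.3 ± 0.258% in ZH11 (SD, n = 3 lists each). Neither zone's lists overlapped (exact permutation p = 0.1 each). The order was the same for the share of covered bases, with 27.8 ± 0.175% in the outer zone in OE1 and 28.6 ± 0.194% in ZH11.

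Of 378 windows of 1 Mb, limma called 8 denser in OE1 (2.12%) and 18 less dense (4.76%) at an adjusted p of 0.05, after each list was scaled to the same total. The lists did not overlap in 64 windows in each direction (16.9% each). Of the less dense windows 11 lay in the outer zone, and of the denser ones 5 lay in the inner zone, against 129 and 126 of all 378. Nearly all differences were small, and 1 window passed a 2-fold difference. These calls depended on single lists: without OE1 list 1 or OE1 list 3 there were 0 denser windows and 2 or 4 less dense, without ZH11 list 3 there were 2 and 7, and without ZH11 list 1 there were 26 and 31. With summit coverage of 8 or more there were 0 denser and 2 less dense.

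The window past 2-fold was the end of chromosome 3, beyond 37 Mb, which the chromosome's last peaks reach by only a short stretch. It held 6, 7 and 6 peaks in OE1 lists and 12, 15 and 13 in ZH11 lists, a log2 difference of −1.26 ± 0.0937 in scaled number (SE, limma adjusted p = 2.67e-06). In this fit, limma drew the spread of each window towards that of all windows, whose medians were 164 to 229.5 peaks per list. With so few peaks in this window, its SE and p-value rest partly on windows with many more. The peaks there covered more bases in OE1, on average 11018 against 7890 in ZH11, so fewer peaks again spanned more of the region. The next windows were chromosome 4 at 35 to 36 Mb, with 108, 112 and 118 peaks in OE1 and 111, 111 and 131 in ZH11 (log2 −0.38 scaled, limma adjusted p = 0.00035), and chromosome 9 at 22 to 23 Mb (log2 −0.34, limma adjusted p = 0.00634). Chromosome 2 at 31 to 32 Mb (log2 −0.31, limma adjusted p = 0.00659) and chromosome 3 at 13 to 14 Mb (log2 −0.25, limma adjusted p = 0.00998) followed.

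The denser windows with the smallest adjusted p were chromosome 6 at 13 to 14 Mb and 15 to 16 Mb, chromosome 11 at 8 to 9 Mb, and chromosome 4 at 15 to 16 Mb and 0 to 1 Mb. The window of chromosome 6 at 13 to 14 Mb held 192, 182 and 204 peaks in OE1 lists and 122, 127 and 133 in ZH11 lists (log2 0.27 ± 0.0539 scaled, SE, limma adjusted p = 0.0134). The other 4 had log2 differences of 0.17 to 0.28.

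Covered bases gave another picture of the same windows. In all 378 windows the mean covered length was greater in OE1 than in ZH11, with ratios of 1.13 to 2.36 and a median of 1.63. The median ratio was 1.76 over the 8 denser windows and 1.49 over the 18 less dense ones, so windows with relatively fewer OE1 peaks still had more covered bases. Peak borders follow each list's own threshold, and the ratio over whole lists was 1.61. This measure was chosen after the data were seen and was not tested by window.

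**Figure D5:**
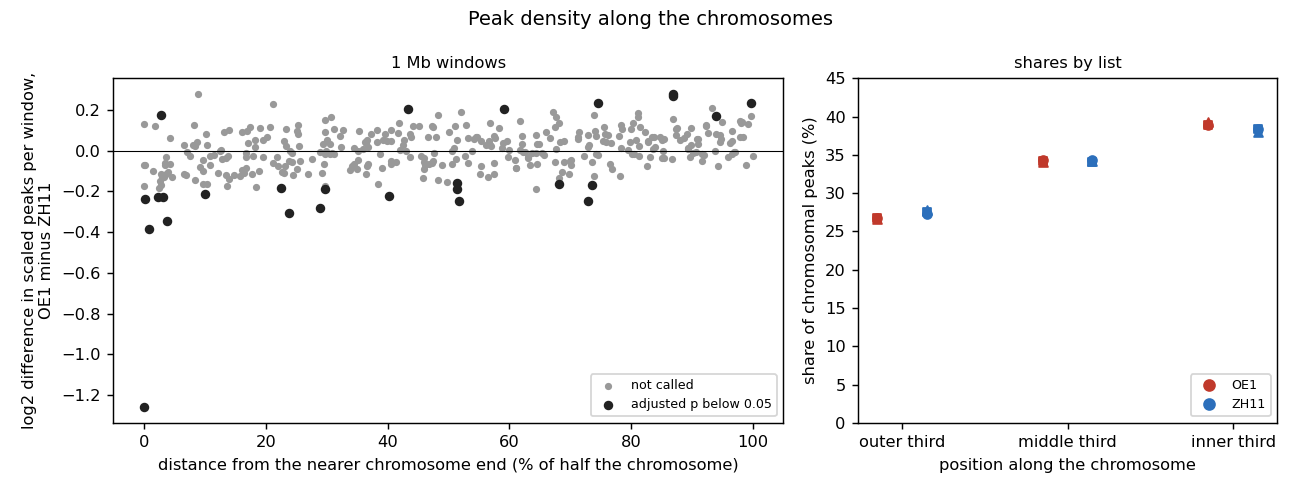
Log2 difference in scaled peaks per 1 Mb window, OE1 minus ZH11, against the distance from the nearer chromosome end (% of the length from end to midpoint), with called windows in black (left), and the share of chromosomal peaks in the outer, middle and inner zone by list (%, right), OE1 in red left of ZH11 in blue. Most windows lie close to 0, the end of chromosome 3 lies at −1.26, and the OE1 lists hold about 26.7% in the outer zone against 27.6% in the ZH11 lists.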

How the data were processed

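Each of the 6 lists (3 OE1, 3 ZH11) comes from an immunoprecipitated seedling library and is shared in the labels with the input of the same number. The authors deposited, per peak, an enrichment ratio (fold over background), −log10 p, −log10 q and a score that equals 10 times −log10 p without decimals and was not used here. The submitters' processing notes name BWA, HISAT2, featureCounts and DESeq without roles; the sources used here name neither peak caller nor genome build. From the files, each peak's whole number of fragments and background were solved from −log10 p and enrichment (tolerance 0.001 on −log10 p). This rests on a Poisson reading of the values. Values per kb also take the shortest peak of each list as the length of 1 fragment. Peaks were merged where they overlap by 1 base. Lists were compared by exact two-sided permutation tests (SciPy 1.17.1), windows of 1 Mb (scaled, pseudocount 1, at least 5 peaks on average) and log2 lengths of shared regions by limma 3.58.1 in R 4.3.3, with Benjamini-Hochberg adjustment. The steps across windows and regions were tried on simulated data with known changes, larger than most differences found here. That run does not vouch for calls on smaller differences. Figures were drawn with Matplotlib 3.10.9.

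The members and lists were chosen with earlier results of these data known. Named regions follow a rule: per genotype the 3 longest and the 3 of highest enrichment with a peak in all 3 lists. The 5 windows and the 3 shared regions of smallest unadjusted p in each direction were named too. So were every chromosome and the 3 contigs with most peaks. Alternatives left out each list, blocked by replicate number, cut on q, equalised list length, and changed overlap, window size, scaling and pseudocount. Floors on enrichment and summit coverage and the zones were added after seeing the data. Intervals of counts were not given, since peaks are not independent reads.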

Additional observations from a re-analysis of the deposited data

How the results depend on the processing

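Of 199 alternatives, 144 were labelled as keeping the result, 52 as moved and 3 as reversed. For measures of whole lists, keeping meant the same direction and the same side of 0.05. That side was fixed in advance, since the exact permutation test cannot go below 0.1. For counts, keeping meant staying near the main count. Of the moved ones, 14 were counts of denser and 12 of less dense windows called by limma. Alternatives that could change nothing are among the 144. Sizes could still differ: at −log10 q of 5 or more the ratio was 3.73 for peak number, 4.68 for covered length and 0.233 for the gap. That cut is not a common floor on coverage, since q rests on each list's background. The difference in the share of peaks of 1000 bases or more (4.14 points) was 13.9 points there, 6.32 at equal list length, 9.31 at enrichment of 4 or more and 13.1 at summit coverage of 8 or more, and that in the share with q below 0.05 (13.9 points) was 28.7 at equal list length. The median enrichment difference (0.122) was 0.0175 at q below 0.05. Reversed were the median gap, 1.08 at equal list length and 1.01 at summit coverage of 8 or more, and the median length difference of shared regions, -0.075 with lists centred. The median enrichment difference was 0.481 at equal list length. Non-overlapping chromosome classes were 3 at summit coverage of 8 or more. Overlap at 50% reciprocal overlap was 61.7% within OE1, 40.1% for OE1 peaks in ZH11, 49.8% for ZH11 peaks in OE1 and 43.3% within ZH11; at q below 0.05 it was 52.7% for OE1 peaks in ZH11, 85.0% for ZH11 peaks in OE1 and 64.3% within ZH11; at equal list length it was 78.8% within OE1 and 77.5% for ZH11 peaks in OE1. Regions found in every OE1 list and none of ZH11 were 1419 at equal list length, 428 at summit coverage of 8 or more and 5686 to 7127 without 1 list; those in every ZH11 list and none of OE1 were 769 at equal list length and 354 to 625 without 1 list.

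Windows denser and less dense in OE1 were 4 and 11 at q below 0.05, 0 and 0 at −log10 q of 5 or more, 0 and 3 at equal list length, 0 and 1 at enrichment of 4 or more, 0 and 2 at summit coverage of 8 or more, 350 and 1 without scaling, 25 and 30 at 500 kb; denser ones were 13 with pseudocount 5 and 18 at 2 Mb. Leaving out 1 list gave 0 to 26 denser and 2 to 31 less dense windows, and 0 to 31 longer shared regions. With the replicate number as a block the windows were 5 and 10. Departures of same-numbered lists from their genotype's mean window densities correlated at −0.14 to 0.06. For lists of other numbers the range was −0.18 to 0.18. With 3 lists per genotype this check is weak and cannot settle whether the numbers pair the lists. The causes were not tested. Merging overlapping peaks within a list and dropping the window minimum changed nothing, since no peaks overlap and all windows pass. Depth of the pulled-down libraries and the shared background limit what the lists can show.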
